A study of Mus musculus with 6 samples.

Results

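The genes described here are 7 members of the major histocompatibility complex (MHC) class II antigen presentation pathway, measured by RNA-seq in tibialis anterior (TA) muscle. They were chosen by symbol from the 55401 gene identifiers of the count table: the class II chains H2-Aa, H2-Ab1 and H2-Eb1, the invariant chain Cd74, the peptide loading subunits H2-DMa and H2-DMb1, and the transactivator Ciita. All 7 passed the filter on low counts and were among the 17222 genes tested. The 6 samples came from C57BL/6 mice of the genotype HSA-MCM-Bmal1-/-, in which tamoxifen-induced Cre, driven in skeletal muscle fibres, deletes the clock gene Bmal1. All were treated with tamoxifen at 12 to 16 weeks of age, with 2 mg per day for 5 days, so controls carried the deletion too. The TA was injected 4 weeks later with adeno-associated virus (AAV) and collected 4 weeks after that. The groups were AAV-GFP (n = 3), which expresses green fluorescent protein, and AAV-RBM20 (n = 3), which carries mouse Rbm20 cDNA behind a CMV promoter with a C-terminal HA tag. RBM20 is a splicing regulator of titin. The methods give a higher vector dose for AAV-RBM20 than for AAV-GFP, so dose and transgene cannot be told apart, and no uninjected muscle is among these samples.

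MHC class II molecules are heterodimers of an alpha and a beta chain that display peptides from engulfed proteins to CD4 T cells. The chains assemble on the invariant chain (Cd74), whose remnant is removed in the endosome with the help of the H2-DM heterodimer, so that antigenic peptide can bind. CIITA is the transactivator without which the class II genes are hardly transcribed. It binds no DNA itself but joins a complex of RFX, CREB and NF-Y proteins on the X and Y boxes of class II promoters. In muscle tissue, class II is known mainly from resident macrophages, dendritic cells and B cells rather than from the fibres.

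Promoter sequence is shown first because it is a feature that the choice of symbols did not use. RefSeq windows around gene starts (GRCm38.p6) were searched on both strands for the Y box core GATTGG and for an X box core, written AACNNNTGANG or AACNNTGANG, which was worded after the windows of these genes had been read. Capitals below mark the X box core and then the Y box core, 5′ to 3′ on the gene strand. H2-Aa is read from chr17:34287847-34287922 (minus strand) and H2-Eb1 from chr17:34305758-34305832 (plus strand). H2-Ob, the beta chain of the H2-DM inhibitor H2-O, is read from chr17:34238800-34238872, and H2-DMb2, the near copy of H2-DMb1, from chr17:34145108-34145183 (both plus strand).
H2-Aa: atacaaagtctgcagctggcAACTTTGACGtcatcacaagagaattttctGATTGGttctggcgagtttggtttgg
H2-Eb1: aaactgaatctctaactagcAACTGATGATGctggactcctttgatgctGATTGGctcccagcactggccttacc
H2-Ob: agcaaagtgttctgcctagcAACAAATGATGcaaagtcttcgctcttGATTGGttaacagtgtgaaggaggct
H2-DMb2: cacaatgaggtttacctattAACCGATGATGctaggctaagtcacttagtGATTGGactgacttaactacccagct

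The cores lie 20 bases apart in H2-Aa, 18 in H2-Eb1, 16 in H2-Ob and 19 in H2-DMb2. H2-DMb1 holds them 19 bases apart as well, at chr17:34153079-34153154, where GENCODE M21 annotates an exon. Neither window of H2-DMa held the pair, so it was found in 3 of the 4 members with a window, and H2-Ab1, Cd74 and Ciita had no window in the table. Among the paralogues searched, H2-Oa and H2-Eb2 held the Y box core without an X box core. Among all 32851 windows of this length, 16.1% held the Y box core and 5.77% an X box core. An X box core followed by a Y box core after 5 to 40 bases was in 0.122%, searched on both strands. On the gene strand alone, where the pairs above lie, the share was 0.0791%. Because the X box core was worded after these genes' windows were read, these shares are no test of the members. A match of letters is a description and does not show binding.

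The total count per library ranged from 41400132 to 54226618, and the 7 members together took between 0.00362% and 0.0321% of it. The libraries numbered 3 stood apart from the others of their own group, with mitochondrially encoded genes at 12.5% and 11.4% of the counts against 6.41% to 7.66%. Ttn, the titin gene, took 4.48% and 9.05% of the counts in them against 16.9% to 17.8% in the others. Results are therefore also given without both libraries numbered 3. The 10 skeletal muscle fibre markers, all detected, summed to between 81494 and 134216 CPM (counts scaled by library size) in each library, with the lowest sum in AAV-RBM20 replicate 3, which also had the highest class II level. The libraries numbered 3 also differed from each other. The fibre marker Myh2 was at 31.6 CPM in AAV-GFP replicate 3, 574.3 CPM in AAV-RBM20 replicate 3 and 416.1 to 791.7 CPM in the others. In the same order, 6 endothelial markers summed to 157.1 CPM, 245.8 CPM and 335.6 to 370.4 CPM. The part of these differences between libraries in the class II values was not tested. Rbm20 had a log2 fold change of 1.54 ± 0.15 (SE), with an edgeR adjusted p of 0.121 over all genes tested. No gene had a lower adjusted p in that test, so even the injected gene did not pass it. The paper reports increased Rbm20 expression after AAV-RBM20, past its own adjusted threshold. A gene that fails this test is therefore not shown to be unchanged.

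The class II genes shared a pattern over the libraries. AAV-GFP replicates 1 and 2 were the lowest and AAV-RBM20 replicate 3 the highest library for all 7, with AAV-GFP replicate 3 and AAV-RBM20 replicates 1 and 2 in between. Summed over the members, the level was 39.9, 39.4 and 160.5 CPM in AAV-GFP and 106.1, 106.1 and 273.3 CPM in AAV-RBM20 replicates 1, 2 and 3. The fold change of the group means was between 1.92 and 2.41 for 6 members and 1.36 for H2-DMa. Because of AAV-GFP replicate 3, the group ranges overlapped for all 7 members, whereas 7.71% of all genes tested had higher values in AAV-RBM20 with no overlap.

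**Figure D1:**
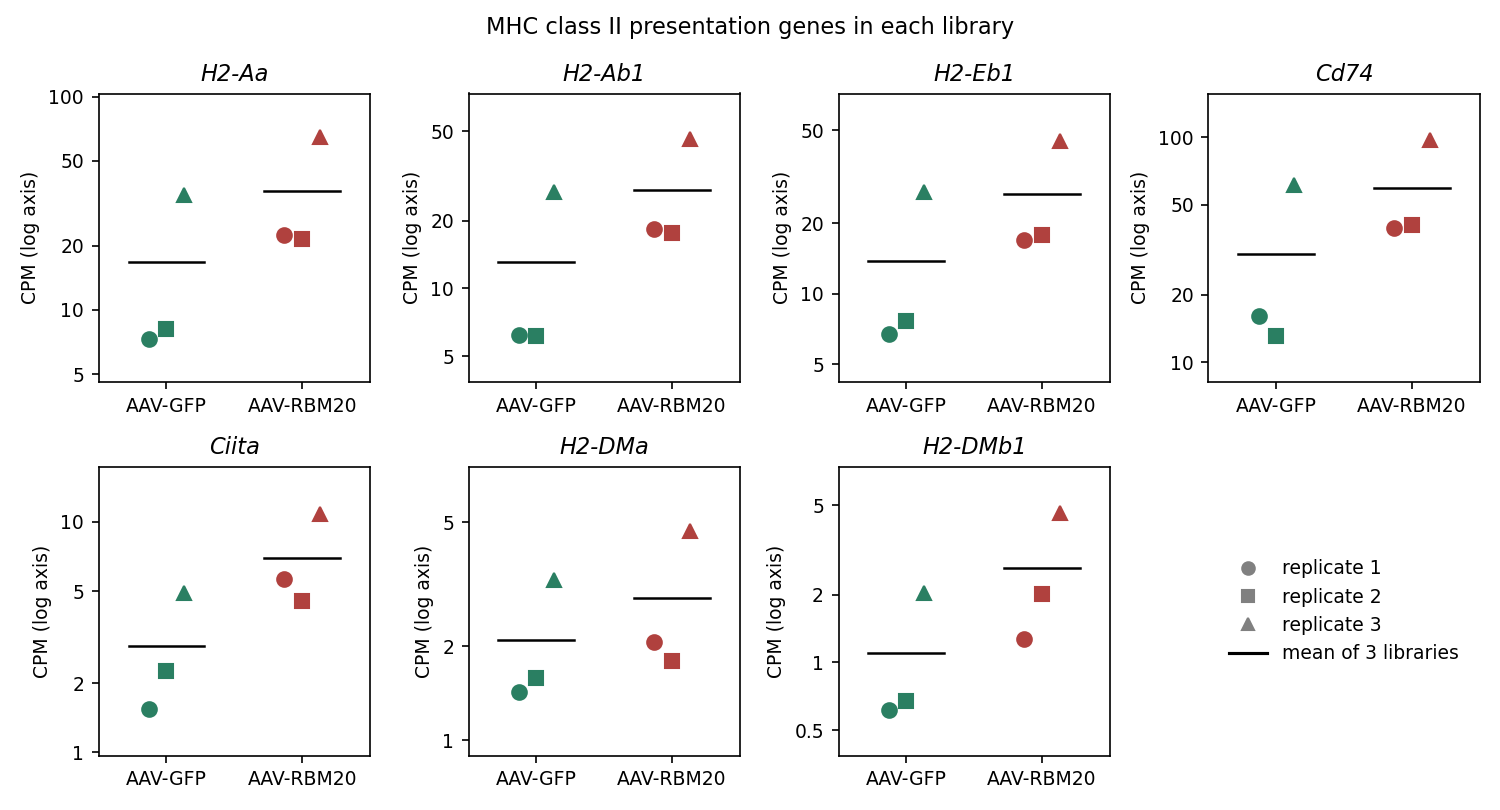
Level of each of the 7 members in CPM on a log axis, with 1 point per library, colour for the AAV group, shape for the replicate number and a line at the mean of 3 libraries. AAV-GFP replicates 1 and 2 are the lowest points of every panel, and AAV-RBM20 replicate 3 is the highest.

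H2-Aa (ENSMUSG00000036594; chromosome 17, 34282744 to 34287823, minus strand) encodes the alpha chain of the I-A molecule. It measured 7.33, 8.10 and 34.7 CPM in AAV-GFP replicates 1, 2 and 3 and 22.5, 21.6 and 64.8 CPM in AAV-RBM20. The lowest AAV-RBM20 library was thus below AAV-GFP replicate 3 and well above the other AAV-GFP libraries. The means were 16.7 ± 15.6 CPM and 36.3 ± 24.7 CPM (SD, n = 3 each), with a log2 fold change of 1.11 ± 0.67 (SE) and an edgeR adjusted p of 0.660.

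H2-Ab1 (ENSMUSG00000073421; 34257689 to 34269419, plus strand) encodes the beta chain that pairs with it. Its values were 6.22, 6.13 and 26.9 CPM in AAV-GFP and 18.3, 17.6 and 45.9 CPM in AAV-RBM20, again with only AAV-GFP replicate 3 inside the range of the other group. The groups differed by a log2 fold change of 1.05 ± 0.63 (SE; edgeR adjusted p = 0.660).

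H2-Eb1 (ENSMUSG00000060586; 34305867 to 34316674, plus strand) encodes the beta chain of the second class II molecule, I-E. It measured 6.69, 7.62 and 27.3 CPM in AAV-GFP and 16.97, 17.9 and 45.0 CPM in AAV-RBM20. The test estimated a log2 fold change of 0.94 ± 0.60 (SE; edgeR adjusted p = 0.669). C57BL/6 mice are known to lack a working gene for the I-E alpha chain, and its locus H2-Ea-ps had 0 counts in all 6 libraries, which allows at most 0.0550 to 0.0746 CPM. The beta chain transcript was therefore counted where no transcript of its partner was.

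Cd74 (ENSMUSG00000024610; chromosome 18, plus strand) encodes the invariant chain and had the highest level of the 7 per kilobase of exon. It measured 16.1, 13.1 and 61.4 CPM in AAV-GFP and 39.4, 40.7 and 97.5 CPM in AAV-RBM20. AAV-GFP replicate 3 exceeded 2 of the 3 AAV-RBM20 libraries, as it did for the class II chains. The fit gave a log2 fold change of 0.97 ± 0.62 (SE; edgeR adjusted p = 0.669).

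Ciita (ENSMUSG00000022504; chromosome 16, 10480059 to 10528418, plus strand) encodes the transactivator and measured 1.55, 2.25 and 4.92 CPM in AAV-GFP and 5.65, 4.53 and 10.8 CPM in AAV-RBM20. Only AAV-RBM20 replicate 2 fell below AAV-GFP replicate 3, so its groups came closest to separating. This gave a log2 fold change of 1.26 ± 0.47 (SE; edgeR adjusted p = 0.618). Its exons overlap those of Dexi on the opposite strand over 329 bases, and Dexi had 6630 counts over the 6 libraries against 63 to 525 per library for Ciita, so its count is uncertain to that extent. A gene-level count does not separate the alternative first exons from which Ciita is transcribed in different cell types.

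H2-DMb1 (ENSMUSG00000079547; 34153072 to 34160230, plus strand) encodes the beta subunit of H2-DM. It measured 0.615, 0.671 and 2.03 CPM in AAV-GFP and 1.26, 2.02 and 4.63 CPM in AAV-RBM20, from 25 to 225 counts per library. The groups differed by a log2 fold change of 1.24 ± 0.61 (SE; edgeR adjusted p = 0.646). Of the distinct 100-base windows of its transcripts, 11.3% also occur in those of H2-DMb2, so reads from there cannot be assigned to 1 gene, while the other 6 members shared none with another gene. H2-DMb2 itself was near the limit of detection, with 5 to 44 counts per library and a log2 fold change of 1.34 ± 0.60 (SE; edgeR adjusted p = 0.641).

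H2-DMa (ENSMUSG00000037649; 34119541 to 34139101, plus strand) encodes the alpha subunit and had the smallest fold change of the 7. Its values were 1.43, 1.58 and 3.27 CPM in AAV-GFP and 2.07, 1.79 and 4.69 CPM in AAV-RBM20. The test estimated a log2 fold change of 0.44 ± 0.46 (SE; edgeR adjusted p = 0.783), and it turned to -0.11 without AAV-RBM20 replicate 3. The annotated gene overlaps exons of Brd2 on the opposite strand over 360 bases, and Brd2 had 23166 counts over the 6 libraries against 709 for H2-DMa. If strand was not used in counting, reads there may have been lost or assigned wrongly, so the count of H2-DMa is uncertain to that extent.

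In edgeR's quasi-likelihood test across all genes, 0 of the 7 members passed an adjusted p of 0.05, as for all genes tested (0.0% called higher). At an unadjusted p under 0.05, 1 of the 7 was higher, Ciita, against 4.08% of all genes. DESeq2 also called 0 members, with 0.209% of all genes called higher, and had 2 members at an unadjusted p under 0.05 against 4.16% of all genes. In limma-voom 0 members were called, and 1 was at an unadjusted p under 0.05 against 4.34% of all genes. The exact permutation test on log2 CPM gave two-sided p values from 0.2 for Ciita to 0.5 for H2-DMa, where 3 against 3 libraries cannot go below 0.1. The median log2 fold change of the members was 1.05, against 0.0090 over all genes tested. All 7 were above 0, as were 51.3% of all genes, and 6 of 7 members were at or above 0.9, as were 3.61% of all genes. The members share libraries and vary together, so they are not separate observations of the groups. They were also chosen with earlier results of these data known. Their shares set beside those of all genes, here and below, are therefore description only. Leaving out AAV-GFP replicate 3 raised the log2 fold changes of H2-Aa, H2-Ab1, H2-Eb1, Cd74, Ciita and H2-DMb1 to 2.23, 2.14, 1.89, 2.02, 1.88 and 2.03, and leaving out AAV-RBM20 replicate 3 lowered them to 0.40, 0.46, 0.34, 0.42, 0.81 and 0.56. Without AAV-GFP replicate 3, 6 of 7 had an unadjusted p under 0.05, against 7.1% of all genes, and no member passed the adjusted threshold in any of the 6 fits that each left out 1 library.

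The titles number the libraries of both groups from 1 to 3, while the descriptions and column names number the AAV-RBM20 libraries 4 to 6, and no source says that the numbers mark pairs. Labels of protein samples in the paper's supplement list some apparent animal numbers under both treatments, marked R for GFP and L for Rbm20. They do not say which muscles were sequenced, so whether libraries of the groups share a mouse is not known. Libraries with the same number in their titles deviated together from their group means, but replicates 1 and 2 also did so across numbers. Every value with the replicate block rests on taking these numbers as pairs. In each of the 3 pairs the AAV-RBM20 library was higher for all 7 members, which held for 22.2% of all genes tested. The fold in pairs 1, 2 and 3 was 3.07, 2.67 and 1.87 for H2-Aa, 2.94, 2.87 and 1.71 for H2-Ab1, and 2.54, 2.34 and 1.65 for H2-Eb1. It was smallest in the third pair for H2-Aa, H2-Ab1, H2-Eb1 and Cd74, but not for Ciita, H2-DMa and H2-DMb1. Levels were highest in replicate 3 of both groups for all 7 members. With the replicate number as a block in the same edgeR test, 3 of the 7 members passed, the class II chains, while 0.0871% of all genes were called higher. The blocked log2 fold changes were 1.30 ± 0.14 for H2-Aa (SE; edgeR adjusted p = 0.0271), 1.26 ± 0.16 for H2-Ab1 (edgeR adjusted p = 0.0491) and 1.08 ± 0.14 for H2-Eb1 (edgeR adjusted p = 0.0439). H2-Ab1 and H2-Eb1 were close to the threshold and missed it in limma-voom with the block, where only H2-Aa passed, at an adjusted p of 0.0296 (0.0813% of all genes called higher). At an unadjusted p under 0.05 with the block, 6 of 7 were higher, against 8.92% of all genes. DESeq2 with the block called 6 of the 7 and 1.07% of all genes higher. The other members had blocked edgeR adjusted p values of 0.0663 for Ciita, 0.0682 for Cd74, 0.0893 for H2-DMb1 and 0.310 for H2-DMa. Without both libraries numbered 3, 5 of the 7 passed (H2-Aa, H2-Ab1, H2-Eb1, Cd74 and Ciita), with log2 fold changes of 1.52, 1.55, 1.29, 1.46 and 1.43, against 1.95% of all genes called higher. Without both libraries numbered 1 or numbered 2, 0 of 7 passed.

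**Figure D2:**
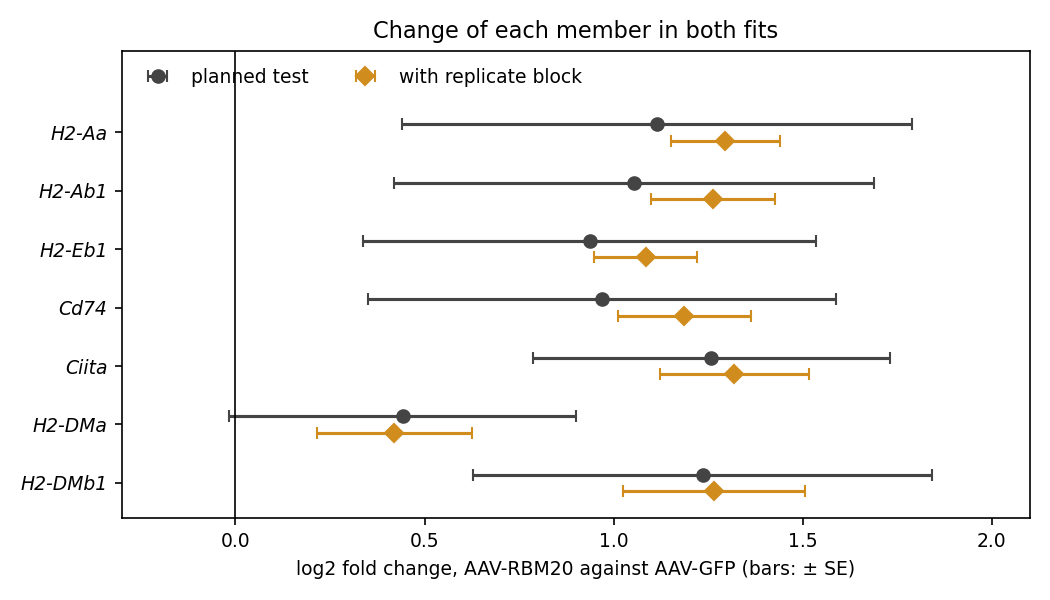
Log2 fold change of AAV-RBM20 against AAV-GFP for each member, with bars of ± 1 SE, in the test without the replicate number (circles) and with it as a block (diamonds). With the block, H2-Aa moves from 1.11 to 1.30 and its bar shrinks from 0.67 to 0.14.

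The ratios among the class II chains and Cd74 within each library varied far less than their levels. H2-Ab1 ranged 7.49-fold over the 6 libraries and H2-Aa 8.83-fold, while the ratio of H2-Aa to H2-Ab1, both per kilobase of merged exon, stayed between 0.796 and 0.954. H2-Eb1 to H2-Ab1 was between 1.22 and 1.64, and Cd74 to H2-Ab1 between 3.25 and 3.96. Per kilobase, the order of mean levels over the 6 libraries was Cd74 (26.6 CPM per kb), H2-Eb1 (10.4), H2-Ab1 (7.86) and H2-Aa (6.98). The last 2 were closest, and per kilobase H2-Aa was below H2-Ab1 in every library. In CPM, H2-Aa was above H2-Ab1 in every library, as its merged exon length is 3.798 kb against 2.568 kb. The loading subunits and the transactivator were much lower, at 1.11 for H2-DMb1, 0.717 for H2-DMa and 0.519 for Ciita. In mean CPM, H2-DMa was above H2-DMb1 in both groups, so these orders depend on the exon length used. Ciita per 100 H2-Ab1 ranged from 4.92 in AAV-GFP replicate 3 to 9.89 in AAV-GFP replicate 2, with group means of 7.17 ± 2.52 and 7.19 ± 1.01 (SD, n = 3 each).

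H2-DMa departed most from this common scaling, as its ratio to H2-Ab1 ranged 2.53-fold and its own level 3.29-fold. For Ciita these ranges were 2.01-fold and 6.98-fold. Per 100 H2-Ab1, H2-DMa was 17.1, 19.2 and 9.04 with AAV-GFP and 8.42, 7.58 and 7.61 with AAV-RBM20, both per kilobase. The groups did not overlap, with an exact permutation p of 0.1 (two-sided), the smallest possible, and 0.825 after adjustment over the 11 ratios compared. The same ratio for H2-DMb1 was 15.1, 16.7 and 11.5 with AAV-GFP and 10.6, 17.5 and 15.4 with AAV-RBM20, which overlapped. The overlap with Brd2 leaves the H2-DMa count uncertain, as given above, and its part in this ratio was not tested.

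Other genes of the pathway were read from lists fixed alongside the members, also with earlier results of these data known. Of 15 accessory and processing genes, 12 passed the filter, with a median log2 fold change of 0.24, and 8 were above 0. None passed the edgeR test at an adjusted p of 0.05 (2 at an unadjusted p under 0.05). Ctss, the cysteine protease that trims the invariant chain, measured 1.55, 1.17 and 7.24 CPM in AAV-GFP and 3.89, 3.98 and 19.5 CPM in AAV-RBM20, which is the library pattern of the members. Its log2 fold change was 1.44 ± 0.845 (SE; edgeR adjusted p = 0.658), and with the replicate block it passed at 0.0251, the 1 gene of this list that did. Ifi30, the endosomal thiol reductase, measured 2.21, 2.16 and 3.59 CPM in AAV-GFP and 3.08, 3.73 and 5.46 CPM in AAV-RBM20, with an edgeR adjusted p of 0.641. The general lysosomal proteases did not share the pattern: Ctsd was lower in all AAV-RBM20 libraries (141.0 to 142.4 CPM) than in AAV-GFP (166.4 to 206.0 CPM), with a log2 fold change of -0.38 ± 0.13 (SE; edgeR adjusted p = 0.618). Lgmn, the asparaginyl endopeptidase, was higher in all AAV-RBM20 libraries (23.0 to 25.8 CPM) than in AAV-GFP (18.6 to 20.1 CPM), with a log2 fold change of 0.32 ± 0.12 (SE; edgeR adjusted p = 0.618). H2-Ob had 8 to 64 counts per library and H2-Oa and H2-Eb2 at most 9.

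Of 21 regulators of class II genes, 20 passed the filter, with a median log2 fold change of 0.00099, and none passed the edgeR test (1 at an unadjusted p under 0.05). Rfx5, a subunit of the RFX complex on the X box, differed little between libraries, at 9.79, 10.9 and 8.07 CPM in AAV-GFP and 9.81, 9.33 and 10.01 CPM in AAV-RBM20, with a log2 fold change of 0.019 ± 0.15 (SE; edgeR adjusted p = 0.977). Its RFX partner Rfxap was lower in all AAV-RBM20 libraries, at 6.64 to 7.76 CPM against 9.03 to 9.73 CPM, with a log2 fold change of -0.37 ± 0.13 (SE; edgeR adjusted p = 0.618). Spi1, the myeloid transcription factor PU.1, measured 0.344, 0.431 and 1.08 CPM in AAV-GFP and 0.990, 0.970 and 2.49 CPM in AAV-RBM20, again the pattern of the members. Its log2 fold change was 1.24 ± 0.56 (SE; edgeR adjusted p = 0.641). Ifng, the cytokine that induces Ciita in many cells, had 0 counts in all AAV-GFP libraries and 2, 0 and 4 in AAV-RBM20. Irf1, an interferon-induced transcription factor, followed another pattern. It measured 10.5, 7.69 and 7.11 CPM in AAV-GFP and 9.75, 9.43 and 21.4 CPM in AAV-RBM20, so that AAV-RBM20 replicate 3 alone stood out (edgeR adjusted p = 0.642).

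MHC class I presentation was compared because it is the closest pathway and 4 of its genes lie among the class II genes. Of its 12 listed genes 11 were above 0, with a median log2 fold change of 0.31, and none passed the edgeR test (0 at an unadjusted p under 0.05). B2m, the light chain of class I molecules, measured 42.7, 49.6 and 70.8 CPM in AAV-GFP and 48.2, 53.3 and 134.3 CPM in AAV-RBM20, with a log2 fold change of 0.53 ± 0.40 (SE; edgeR adjusted p = 0.708). Nlrc5, the class I transactivator, was lowest in AAV-GFP replicate 3, at 3.93 CPM, where Ciita was highest among the AAV-GFP libraries. It was 8.17 and 10.5 CPM in the other AAV-GFP libraries and 9.35, 9.23 and 19.9 CPM in AAV-RBM20. The ratio of H2-Ab1 to B2m counts was 0.146, 0.124 and 0.380 with AAV-GFP and 0.380, 0.330 and 0.342 with AAV-RBM20. The ratio was thus low in AAV-GFP replicates 1 and 2 only, and the groups did not differ beyond their spread (exact permutation p = 0.4, two-sided; 0.88 adjusted over the 11 ratios).

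**Figure D3:**
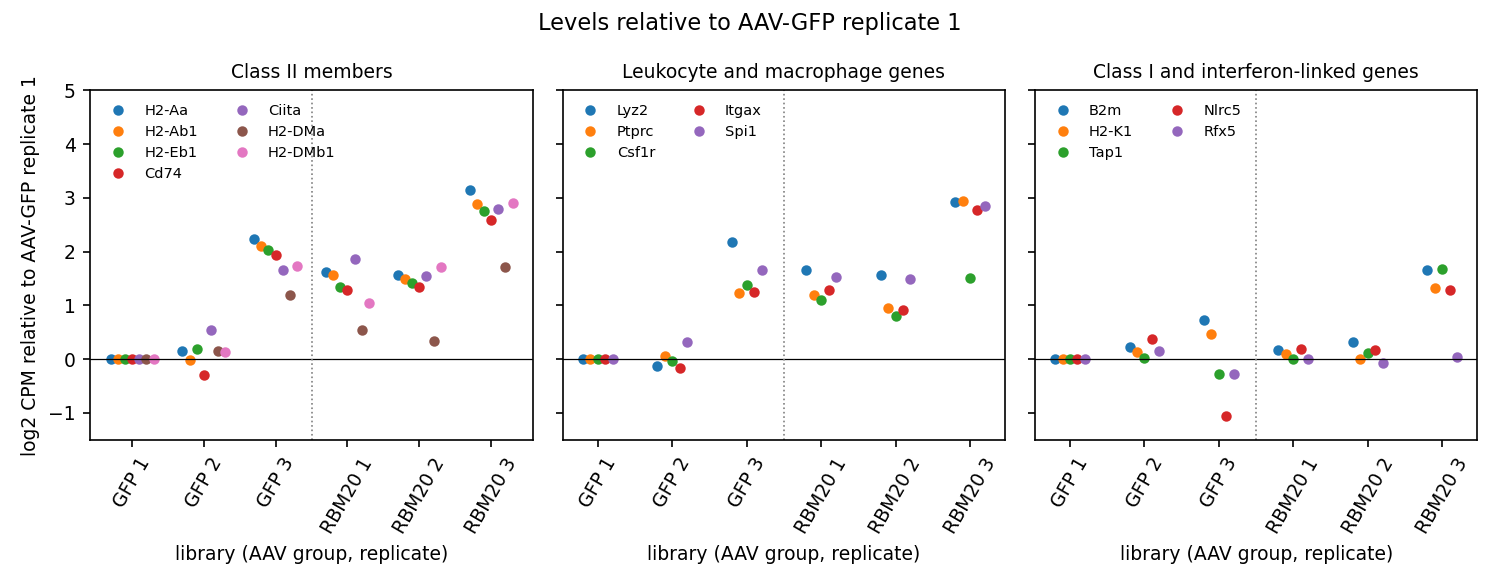
Log2 CPM relative to AAV-GFP replicate 1 in each library, for the members (left), leukocyte and macrophage genes (middle) and class I or interferon-linked genes with Rfx5 (right), with 1 point per gene and library. AAV-GFP replicate 3 is raised in the left and middle panels, while in the right panel Tap1, Nlrc5 and Rfx5 are below 0 there.

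The summed macrophage and pan-leukocyte markers were lowest in AAV-GFP replicates 1 and 2 and highest in AAV-RBM20 replicate 3, as the members were. In bulk tissue, more cells of a type and more RNA per cell cannot be told apart. The 15 macrophage and monocyte markers summed to 40.1, 40.7 and 121.7 CPM in AAV-GFP and 90.3, 80.8 and 176.4 CPM in AAV-RBM20. Of these, 14 passed the filter, 13 with a log2 fold change above 0 and a median of 0.80, while Lyve1 was at -0.22 ± 0.48 (SE). None passed the edgeR test (1 at an unadjusted p under 0.05), and with the replicate block 1 did, the monocyte chemokine receptor Ccr2, at an edgeR adjusted p of 0.0251. The 6 pan-leukocyte genes summed to 10.3, 9.51 and 26.0 CPM in AAV-GFP and 20.3, 19.3 and 64.4 CPM in AAV-RBM20. All 6 were above 0, with a median log2 fold change of 1.14, and none passed the edgeR test without the block (1 at an unadjusted p under 0.05). Ptprc, which encodes CD45, measured 4.03, 4.19 and 9.52 CPM in AAV-GFP and 9.18, 7.81 and 31.1 CPM in AAV-RBM20, with an edgeR adjusted p of 0.618, and 0.0478 with the replicate block. Counts of H2-Ab1 per count of Ptprc were 1.54, 1.46 and 2.83 with AAV-GFP and 1.99, 2.25 and 1.48 with AAV-RBM20, with an exact permutation p of 0.9 (two-sided; 0.99 adjusted over the 11 ratios). Lyz2, the lysozyme gene of macrophages and neutrophils, was the non-member most correlated with the class II chains and Cd74 (0.997, given below). A steady ratio to Lyz2 therefore restates that correlation and is no separate result. Per count of Lyz2, H2-Ab1 stayed between 0.640 and 0.738 in all 6 libraries. Per count of Csf1r, the macrophage growth factor receptor, it was 0.988, 1.00 and 1.64 with AAV-GFP and 1.36, 1.603 and 2.57 with AAV-RBM20 (exact permutation p = 0.3, two-sided; 0.825 adjusted over the 11 ratios). Exons of Csf1r overlap those of Hmgxb3 on the opposite strand over 873 bases. The part of these markers' cells in the class II values was not tested.

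Dendritic cell markers were mostly rare. Of 11, 8 passed the filter, with a median log2 fold change of 0.40, and none passed the edgeR test (1 at an unadjusted p under 0.05). Itgax, which encodes CD11c, measured 0.566, 0.503 and 1.35 CPM in AAV-GFP and 1.37, 1.07 and 3.89 CPM in AAV-RBM20 (edgeR adjusted p = 0.626). Zbtb46 and Fscn1, at 7.88 CPM or more in every library, made up most of the list's sum of 24.5 to 39.0 CPM and did not share the pattern of the members. Cd209a, a lectin of dendritic cells, had a log2 fold change of -0.50 ± 0.42 (SE; edgeR adjusted p = 0.738). The B cell marker Ms4a1 had 4 to 24 counts per library. Ighm was far higher in level, at 88.8 to 144.1 CPM in AAV-GFP and 33.8 to 73.8 CPM in AAV-RBM20, opposite in direction to the class II genes. Its edgeR adjusted p was 0.618, and 0.0251 with the replicate block. Ighd, with 8 to 23 counts per library, was also below 0, with a log2 fold change of -0.36 ± 0.48 (SE; edgeR adjusted p = 0.832). Of 11 B cell markers 6 passed the filter, with a median of 0.29 and none past the edgeR test without the block (1 at an unadjusted p under 0.05). The other 4 of these were above 0, with low counts. Their log2 fold changes were 0.92 ± 0.78 for Cd22, 0.76 ± 0.52 for Bank1, 0.31 ± 0.49 for Pax5 and 0.27 ± 0.60 for Cd79b (SE). Their edgeR adjusted p values ran from 0.688 to 0.905. The 10 T cell markers summed to 0.541 to 1.39 CPM in the 5 libraries other than AAV-RBM20 replicate 3, where they reached 8.11 CPM, and only 2 passed the filter, with a median of 1.18 and none past the edgeR test (0 at an unadjusted p under 0.05). On the side of the responding T cell and its costimulation, 9 of 10 genes passed the filter and all 9 were above 0, with a median of 1.05. None of them passed the edgeR test (2 at an unadjusted p under 0.05). The list summed to 10.5 to 13.0 CPM in AAV-GFP and to 12.6, 10.1 and 38.0 CPM in AAV-RBM20. AAV-RBM20 replicate 3 alone thus stood out in the sum, and 4 of the 9 were higher in AAV-RBM20 in all 3 pairs. Cd80 and Cd40, costimulatory receptors of antigen-presenting cells, were higher in CPM in all AAV-RBM20 libraries, though Cd80 had only 1 to 13 counts with AAV-GFP and 10 to 37 with AAV-RBM20. They had log2 fold changes of 2.03 ± 0.73 and 1.11 ± 0.39 (SE) and an edgeR adjusted p of 0.618 each. The 6 endothelial markers had a median of 0.14 and the 10 fibre markers a median of -0.17, with none past the edgeR test in these lists (0 and 1 at an unadjusted p under 0.05).

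The genes most like the class II genes across libraries were sought by the Pearson correlation of log2 CPM over the 6 libraries with the mean of H2-Aa, H2-Ab1, H2-Eb1 and Cd74, among 11555 genes whose mean log2 CPM was 1 or more. Over so few libraries, of which those numbered 3 stand apart, many genes correlate highly, and 129 genes other than the members were above 0.95. The closest were Lyz2 (0.997) and C1qb, a complement subunit made by macrophages (0.995), followed by Lgals8, Pros1, Gltp and Kctd12, from 0.993 to 0.991. Mpeg1, a pore-forming protein of macrophages, Cpne3, the protease gene Ctsh and Tmem47 completed the first 10, from 0.990 to 0.988. Lyz2 measured 9.10, 8.31 and 41.2 CPM in AAV-GFP and 28.6, 26.8 and 68.8 CPM in AAV-RBM20. Mpeg1 had a log2 fold change of 1.45 and passed with the replicate block at an edgeR adjusted p of 0.0251. Ciita correlated with the same mean at 0.957 and ranked 112 of the 11555, and H2-DMa at 0.926 ranked 231. Between pairs of members the correlation was lowest for Ciita and H2-DMa, at 0.867.

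Of the 7 members, 5 lie within 197.1 kb of chromosome 17 (GRCm38, 34119541 to 34316674), together with genes of the class I pathway. Of 18 annotated genes that touch this interval, 13 were tested. The 8 that are no members had log2 fold changes from -0.12 to 1.34, with a median of 0.46 and 7 above 0, and none passed the edgeR test with or without the replicate block (lowest adjusted p 0.641 and 0.175). The interval was not uniform. Tap1 and Psmb9, which supply peptides to class I, had log2 fold changes of 0.89 ± 0.43 and 0.76 ± 0.37 (SE), Psmb8 and Tap2 beside them 0.16 ± 0.41 and 0.25 ± 0.17, and Brd2 0.00078 ± 0.12, with edgeR adjusted p values from 0.642 to 0.998.

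**Figure D4:**
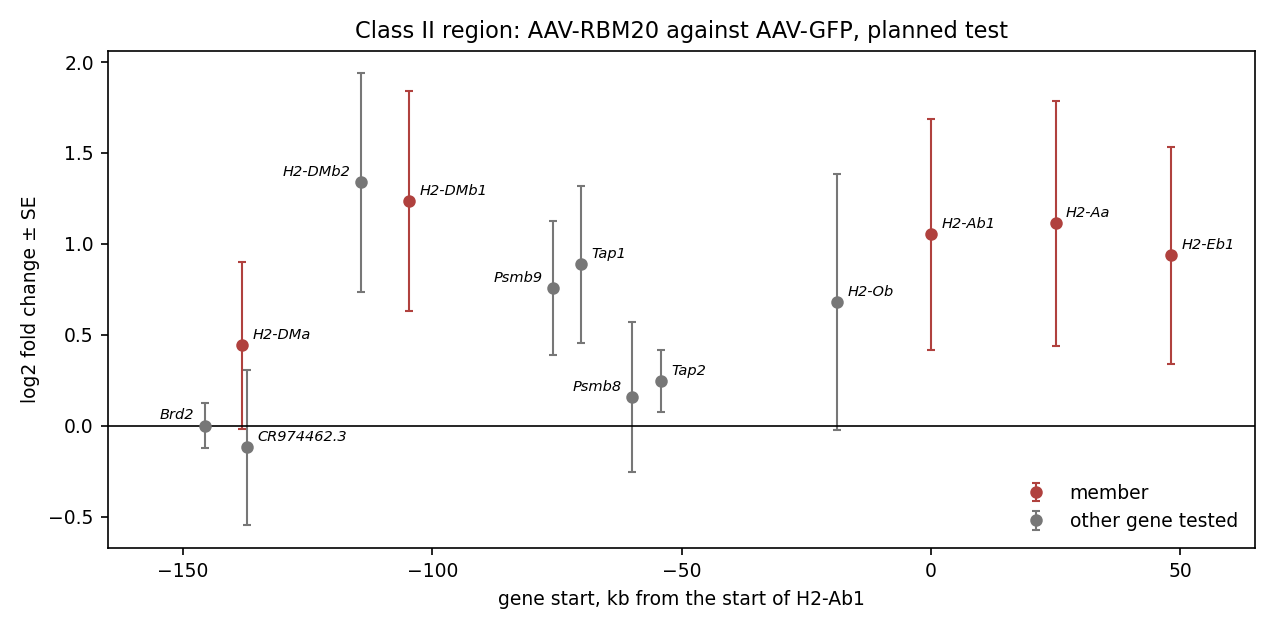
Log2 fold change with ± 1 SE of the 13 tested genes of the class II interval on chromosome 17, placed by their start in kb from the start of H2-Ab1, with members in red. H2-DMb1, H2-Ab1, H2-Aa and H2-Eb1 lie between 0.94 and 1.24, and Brd2 lies at 0.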

How the data were processed

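RNA-seq libraries were prepared from total RNA of pulverised TA muscle with a stranded kit after ribosomal RNA depletion. Reads were mapped by the authors to mm10 with HISAT2 and counted per Ensembl gene with HTSeq, and the deposited counts are raw whole numbers. The versions, annotation release and strand setting are not given in the sources used here. The second deposited table holds a signal, the same counts divided by 1 DESeq2 size factor per library, and was used only to check that this ratio is constant within each library. Symbols, positions and merged exon lengths were taken from GENCODE M21 (GRCm38), which holds 55141 of the 55401 identifiers.

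Groups were taken from the treatment labels and replicate numbers from the titles (the descriptions number AAV-RBM20 from 4 to 6). No label says that the samples came from separate mice, within a group or between groups, so p values measure the spread between these 6 samples. Chi-square per degree of freedom between replicates was 15.1 or more, so none was a copy. AAV-RBM20 was compared with AAV-GFP by edgeR 4.0.16 (filterByExpr, TMM, glmQLFit with robust estimation, glmQLFTest; R 4.3.3), with Benjamini-Hochberg adjustment over 17222 genes and a threshold of 0.05. SE is the log2 fold change divided by the square root of F. CPM uses TMM-scaled library sizes, and log2 CPM a prior count of 2. Exact permutation tests used SciPy 1.17.1. The test was checked on simulated counts. Floors (3 counts) cover counting error only.

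Pairing was checked on deviations of log2 CPM from group means: across genes, same-numbered libraries correlated at 0.42, 0.20 and 0.48, all above the minimum of 0.1, so the numbers were taken as pairs. AAV-GFP replicate 2 correlated about as well with AAV-RBM20 replicate 1 (0.22), and AAV-GFP replicate 1 correlated with AAV-RBM20 replicate 2 at 0.13. Both values also exceed the minimum, so this check cannot tell the numbered pairs 1 and 2 from swapped ones. Alternatives were other scalings and filters, DESeq2 1.42.0, limma-voom (limma 3.58.1), the replicate block, removal of mitochondrial, Ttn and Rbm20 counts, and removal of each library. Removal of each numbered pair and the block in DESeq2 and limma-voom were added after the data were examined. The members and lists were chosen with earlier results of these data known. From each list, up to 4 genes with the lowest unadjusted p and set defining genes were named, with the 10 genes most correlated with the class II chains and Cd74, and some others, such as B2m and Zbtb46, after their values were seen. Some listed genes are not reported here by name.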

Additional observations from a re-analysis of the deposited data

How the results depend on the processing

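The count of members past an adjusted p of 0.05 was 0 in edgeR's test and stayed 0 in all fits without the replicate number that used all 6 libraries and whenever a single library was left out (0 to 0). It was 3 with the replicate block, 1 with limma-voom and the block, 6 with DESeq2 and the block, and 5 without both libraries numbered 3. The count over all genes was 0, with 0 to 0 on leaving out any single library, 8 with no low-count filter, 75 with DESeq2, 25 with the replicate block, 27 with limma-voom and the block, 520 with DESeq2 and the block, and 690 without both libraries numbered 3. With the replicate block, 1 gene each was called in the accessory and processing (Ctss), macrophage (Ccr2), B cell (Ighm) and pan-leukocyte (Ptprc) lists, against 0 without it, and the block changed no other list's count. Why the counts differ was not tested. Of 133 log2 fold changes of members under the alternatives, 117 kept sign and side of the threshold, 15 passed it newly, and 1 changed sign, H2-DMa at -0.11 without AAV-RBM20 replicate 3. Over all alternatives H2-Aa ranged from 0.40 to 2.23, H2-DMa from -0.11 to 0.92 and Ciita from 0.81 to 1.88. The adjusted p spanned 7.70e-12 to 0.999 for H2-Aa, 3.70e-09 to 0.999 for H2-Ab1 and 6.26e-08 to 0.999 for H2-Eb1, lowest with DESeq2 and the block. Upper quartile factors moved the genes at an unadjusted p under 0.05 from 702 higher and 658 lower to 865 and 504, and the median of all genes from 0.0090 to 0.053. Counts of H2-DMb1 were 25 and 28 in the lowest libraries, which limits the precision of its ratio.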
